A study of Homo sapiens with 52 samples.

Results

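WI-38 fibroblasts, a line of normal human lung fibroblasts established from embryonic tissue, were compared at the end of 2 different senescence-inducing treatments. PMD-Sen cells had been exposed for 24 h to 0.009% sodium dodecyl sulfate (SDS), a detergent that damages the plasma membrane. DDR-Sen cells had been exposed for 24 h to 250 nM doxorubicin (DXR), which damages DNA. Day 0 is the day on which the agent was washed away, and the names describe the state these cells were heading for, not an arrest measured in these libraries. Untreated cells of the same line, at population doubling levels 32 to 46, served as the reference for both. All 3 groups had 2 messenger RNA libraries each, and no group carried a transgene or a genetic change.

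The comparison took in every gene whose mean normalized count was at least 10 in both day 0 tables, that is 14230 of 59408 genes. A normalized count is the number of reads on a gene in a library, divided by the size factor of that library. The whole reads of each library were recovered from the deposited means, and 13936 of these genes had reads in all 6 libraries that could be tested. The other 294 genes are highly expressed, with means of at least 3126 in both tables, and only their group means were known, so they are given without a test. Their mean was higher in PMD-Sen than in DDR-Sen by at least 1 on the log2 scale for 11 and lower by as much for 60. Differences are written as PMD-Sen minus DDR-Sen on the log2 scale with their standard error (SE), and calls are those with an adjusted p under 0.05 in 1 limma fit over the tested genes.

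Doxorubicin traps topoisomerase II on DNA and leaves double-strand breaks. The break-activated kinases stabilise p53, which turns on CDKN1A and other arrest, repair and death genes, while the genes of DNA replication and mitosis are shut down through E2F and DREAM complexes at their promoters. SDS opens the plasma membrane, lets Ca2+ in and calls on repair by annexins, ferlins and the ESCRT-III machinery. Cells under nutrient, redox or endoplasmic reticulum (ER) stress phosphorylate eIF2alpha and translate ATF4, which drives amino acid synthesis and transport, and misfolded protein in the ER activates IRE1, ATF6 and PERK, the sensors of the unfolded protein response.

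The libraries held 15258997 and 18971753 reads on genes in untreated cells, 22166509 and 23480826 in PMD-Sen and 46000699 and 52304886 in DDR-Sen, so counting error was smallest in DDR-Sen. Genes with any read numbered 21793 to 22461, 23024 to 23601, and 29099 to 29638 in the same order. Over genes averaging 100 or more normalized counts, the log2 ratio of the 2 libraries of a group had a standard deviation of 0.289 to 0.303. White blood cell markers were nearly absent: of 8 tried, 2 were at 0 in every library and 5 had at most 10 reads in any, and their summed normalized count was 31.6 to 35.1 in untreated, 24.0 to 57.2 in PMD-Sen and 101 to 106 in DDR-Sen cells. The summed count of 7 epithelial markers was 2296 to 2351 in PMD-Sen and 2906 to 3165 in DDR-Sen, and that of 6 endothelial markers 1155 to 1323 and 1520 to 1915. Nearly all of the epithelial sum lay on the keratins KRT8, KRT18 and KRT19, while EPCAM, CDH1, KRT5 and KRT14 had at most 31 reads in any library. Likewise TEK made up most of the endothelial sum, VWF had at most 175 reads in any library, and PECAM1, CDH5, KDR and CLDN5 had at most 27. The part of these markers in the results was not tested. Reads on mitochondrially encoded genes made up 3.36% in untreated, 3.54% in PMD-Sen and 4.25% in DDR-Sen cells. These genes did not move together in PMD-Sen. The group means of MT-RNR1, MT-RNR2, MT-ND1 and MT-ND2 lay above untreated cells, at 254429 against 145820 for the ribosomal RNA MT-RNR2. The other mitochondrial genes known by group means lay below, with MT-CO1 at 195760 against 238659. In bulk libraries like these, fewer cells of a kind and less RNA per cell cannot be told apart.

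On day 0 the 2 treatments had left the cells far apart. In PMD-Sen 4252 genes were higher than in DDR-Sen (30.5% of those tested) and 3611 were lower (25.9%). Differences of at least 1 on the log2 scale were called for 1210 genes in the higher direction (8.68%) and 1367 in the lower direction (9.81%). Against untreated cells, 3365 genes were higher (24.1%) and 3479 lower (25%) in PMD-Sen, while 2065 were higher (14.8%) and 2744 lower (19.7%) in DDR-Sen. Both of those comparisons use the same untreated libraries. The count of 4809 genes called in DDR-Sen against untreated cells dropped to 2489 without the larger untreated library and to 2942 without the smaller. Both PMD-Sen libraries lay above, or both below, the 2 DDR-Sen libraries for 79.1% of the tested genes.

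**Figure D1:**
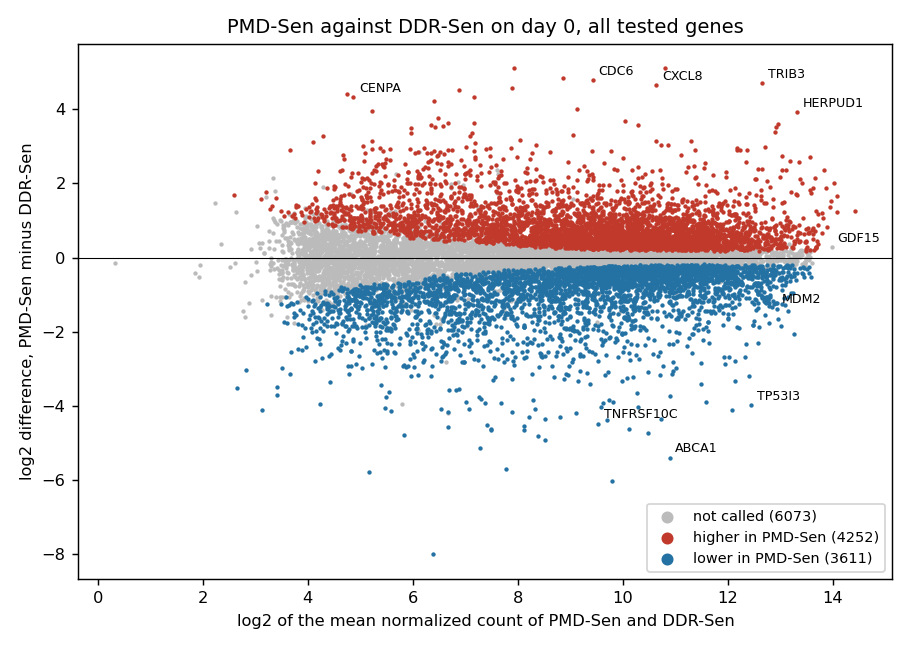
Each point is a tested gene, with the log2 of its mean normalized count over PMD-Sen and DDR-Sen on the x axis and its log2 difference, PMD-Sen minus DDR-Sen, on the y axis. The 4252 genes called higher are red, the 3611 called lower are blue and the 6073 not called are grey, and TRIB3, CDC6, CXCL8 and HERPUD1 lie at the top while ABCA1, TNFRSF10C and TP53I3 lie at the bottom.

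Where both table means reached 100 or more, the 10 genes with the largest positive differences were ADM2, CDC6, TRIB3, CXCL8, CENPA, HERPUD1, MFSD2A, NIBAN1, VLDLR and PTX3. MFSD2A, which carries lysophosphatidylcholine into cells, had 1842 and 2051 normalized counts in PMD-Sen and 131 and 174 in DDR-Sen (3.70 ± 0.14, adjusted p = 1.9e-06). NIBAN1, a stress-induced gene, had 15582 and 14056 in PMD-Sen against 1212 and 1205 (3.61 ± 0.14, adjusted p = 2.5e-06). Untreated cells lay near DDR-Sen for MFSD2A, at 185 and 172 normalized counts, and between the treated groups for NIBAN1, at 2295 and 1576. PTX3, a secreted pattern recognition protein, had a different order: it had 9811 and 5768 in untreated cells, 16948 and 11776 in PMD-Sen and 1411 and 1063 in DDR-Sen (3.53 ± 0.26, adjusted p = 2.7e-05). It was called lower than untreated in DDR-Sen (-2.62 ± 0.27, adjusted p = 3.5e-04).

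With the same limit of 100 on both table means, the 10 genes with the largest negative differences were ABCA1, KCNK2, LRRN3, SHROOM2, ANK1, RAB7B, TMEM35A, IRAG1, METTL7A and INMT. They had log2 differences between -5.40 and -4.30, and all 10 were also called lower in PMD-Sen than in untreated cells. Each table mean also averages the untreated libraries. A gene low in PMD-Sen therefore reached the limit more readily where untreated cells were high, so that count is not a result of its own. KCNK2, a potassium leak channel that responds to membrane stretch, had 17.6 and 28.8 normalized counts in PMD-Sen, 732 and 566 in DDR-Sen and 464 and 281 in untreated cells (-4.81 ± 0.52, adjusted p = 1.5e-04). SHROOM2, an actin-binding protein, had 11 and 15.6 in PMD-Sen, 302 and 394 in DDR-Sen and 484 and 381 in untreated cells (-4.65 ± 0.47, adjusted p = 1.0e-04). IRAG1, a substrate of cGMP-dependent kinase at the ER calcium channel, had 137 and 183 in PMD-Sen against 3393 and 3104 in DDR-Sen (-4.36 ± 0.17, adjusted p = 2.5e-06). DDR-Sen was not called different from untreated cells for SHROOM2 (adjusted p = 0.17) or IRAG1 (adjusted p = 0.33). ANK1, which anchors membrane proteins to spectrin, moved apart on both sides: it had 320.5 and 339 in untreated cells, 94.7 and 73.2 in PMD-Sen and 1689 and 2609 in DDR-Sen (-4.64 ± 0.39, adjusted p = 4.5e-05).

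Transcriptional targets of p53 marked DDR-Sen. Of 29 tested members of the list, 26 were lower in PMD-Sen than in DDR-Sen and 2 were higher, with a median log2 difference of -1.366 beside 0.050 over all genes tested. Against untreated cells 27 of the 29 were higher in DDR-Sen and none lower (median 1.268), whereas in PMD-Sen 6 were higher and 9 lower (median -0.097). Of all genes tested, 30.5% were higher and 25.9% lower in PMD-Sen than in DDR-Sen. Against untreated cells the shares were 14.8% higher and 19.7% lower in DDR-Sen, and 24.1% and 25% in PMD-Sen. The list counts in PMD-Sen against untreated cells lay near these last shares. With a library left out, the PMD-Sen counts ranged from 3 to 7 higher and from 5 to 10 lower.

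TNFRSF10C, a decoy receptor for the death ligand TRAIL, had 65 and 60 normalized counts in PMD-Sen, 1331 and 1506 in DDR-Sen and 118 and 128 in untreated cells (-4.49 ± 0.20, adjusted p = 3.5e-06). Of its exon bases, 26% overlap another gene on the same strand, so its reads are uncertain. TP53I3, a quinone oxidoreductase, had 589 and 682 in PMD-Sen and 7241 and 13810 in DDR-Sen (-3.98 ± 0.31, adjusted p = 3.0e-05), and FDXR, which passes electrons to mitochondrial P450 enzymes, had 497 and 490 against 4422 and 6156 (-3.40 ± 0.18, adjusted p = 6.7e-06). For both, the 2 PMD-Sen libraries lay below the untreated ones, at 1164 and 1176 for TP53I3 and 1114 and 965 for FDXR, although only FDXR was called lower in PMD-Sen than in untreated cells (-1.08 ± 0.20, adjusted p = 0.0032). The antiproliferative gene BTG2 went the same way, with 424 and 372 normalized counts in PMD-Sen, 2605 and 3544 in DDR-Sen and 798 and 625 in untreated cells (-2.93 ± 0.20, adjusted p = 1.7e-05). So did SESN1, a sestrin that restrains mTORC1, with 265 and 250, 1462 and 1900, and 463 and 402 (-2.69 ± 0.18, adjusted p = 1.8e-05).

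MDM2, the ubiquitin ligase that degrades p53, showed a smaller difference. It had 4433 and 4234 normalized counts in PMD-Sen, 10417 and 12261 in DDR-Sen and 3666 and 3588 in untreated cells (-1.38 ± 0.09, adjusted p = 1.4e-05). CDKN1A, the cyclin-dependent kinase inhibitor p21, was known by its group means alone, which were 23288 in untreated cells, 30457 in PMD-Sen and 98814 in DDR-Sen, a log2 difference of -1.70 without a test. TNFRSF10B, a death receptor for TRAIL, had group means of 14330 in PMD-Sen and 14188 in DDR-Sen, both above the 5925 of untreated cells.

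GADD45A, a stress gene of growth arrest and DNA repair, was higher in PMD-Sen. It had 9336 and 7968 in PMD-Sen and 4296 and 5733 in DDR-Sen (0.80 ± 0.14, adjusted p = 0.0017). GDF15, a secreted stress hormone, was the member not called between the treatments: PMD-Sen had 18659 and 16636 and DDR-Sen 11733 and 18047 (0.28 ± 0.17, adjusted p = 0.21). The libraries of the 2 treatments overlapped for GDF15, and both lay above the 1085 and 993 of untreated cells, by 4.08 ± 0.21 in PMD-Sen (adjusted p = 1.1e-05) and 3.80 ± 0.21 in DDR-Sen (adjusted p = 3.0e-05).

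The BCL2 family, which decides on mitochondrial cell death, divided by member. Of 13 tested, 3 were higher and 7 lower in PMD-Sen (median -0.252), beside 30.5% and 25.9% of all genes tested. The death-promoting genes BBC3 and BMF, of the BH3-only class, were lower than in DDR-Sen, BBC3 at 380 and 366 normalized counts against 971 and 1294 (-1.58 ± 0.18, adjusted p = 1.7e-04) and BMF at 47.3 and 56.4 against 316 and 181 (-2.22 ± 0.43, adjusted p = 0.0028). PMAIP1, also of that class, was higher, at 4797 and 4889 against 1868 and 2005 (1.32 ± 0.10, adjusted p = 2.7e-05). BCL2, the founding survival gene, had 303 and 226 in PMD-Sen, 48.7 and 44.5 in DDR-Sen and 129 and 116 in untreated cells (2.49 ± 0.21, adjusted p = 4.5e-05). It was called in opposite directions against untreated cells, higher in PMD-Sen (1.09 ± 0.22, adjusted p = 0.0039) and lower in DDR-Sen (-1.40 ± 0.25, adjusted p = 0.0043).

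**Figure D2:**
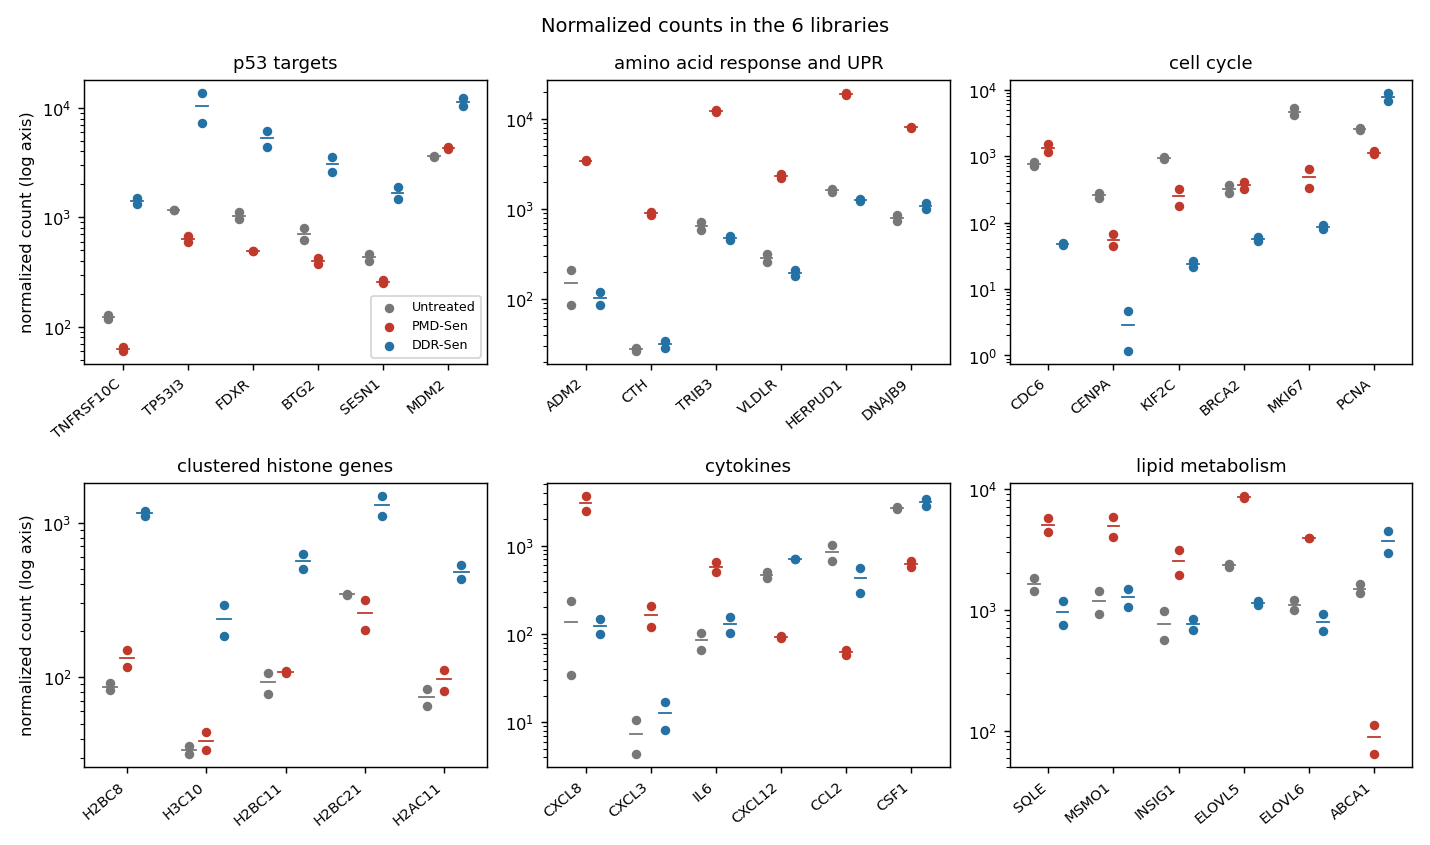
Each point is the normalized count of a gene in 1 library, on a log axis, for untreated (grey), PMD-Sen (red) and DDR-Sen (blue) cells, with a bar at the mean of the 2 libraries. The p53 targets and histone genes are highest in DDR-Sen, the amino acid and ER genes are highest in PMD-Sen, and the mitotic genes KIF2C and MKI67 are lower in both treatments than in untreated cells and lowest in DDR-Sen.

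Genes of cell division were below untreated cells after both treatments and were lowest in DDR-Sen. All 40 tested mitotic genes were called lower than untreated in PMD-Sen, with a median of -2.355, and all 40 in DDR-Sen, with a median of -4.407. In the direct comparison 38 of the 40 were higher in PMD-Sen and 1 was lower (median 2.021), beside 30.5% and 25.9% of all genes tested. CENPA, the histone variant that marks centromeres, had 283 and 232 normalized counts in untreated cells, 44 and 67.2 in PMD-Sen and 4.61 and 1.17 in DDR-Sen (4.32 ± 0.60, adjusted p = 5.4e-04). KIF2C, a kinesin that shortens microtubules at kinetochores, had 964 and 905, then 175 and 321, then 26.1 and 21.7 (3.28 ± 0.39, adjusted p = 2.3e-04), and NUF2, a kinetochore protein, had 371 and 444, 60.5 and 91.3, and 8.2 and 12.3 (2.86 ± 0.38, adjusted p = 4.5e-04). The proliferation marker MKI67 had 5272 and 4127 in untreated cells, 336 and 645 in PMD-Sen and 81.5 and 90.8 in DDR-Sen (2.42 ± 0.36, adjusted p = 7.7e-04).

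The exceptions were AURKA and PTTG1. AURKA, a spindle pole kinase, had 400 and 646 normalized counts in PMD-Sen and 462 and 461 in DDR-Sen, and the groups overlapped (0.13 ± 0.18, adjusted p = 0.57). PTTG1, the securin that holds back the separation of sister chromatids, had 198 and 329 in PMD-Sen and 398 and 566 in DDR-Sen, lower in PMD-Sen (-0.89 ± 0.26, adjusted p = 0.018).

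The G1/S and DNA replication list had less of a single direction. Of 46 tested members 23 were higher and 7 lower in PMD-Sen than in DDR-Sen (median 0.691), beside 30.5% and 25.9% of all genes tested. Against untreated cells 42 were lower in PMD-Sen (median -1.482) and 43 in DDR-Sen (median -2.016), beside 25% and 19.7%. CDC6, which loads the replicative helicase on origins, was among the genes furthest apart, with 1155 and 1515 normalized counts in PMD-Sen, 48.7 and 46.3 in DDR-Sen and 812 and 707 in untreated cells (4.79 ± 0.25, adjusted p = 5.7e-06). It was the list member called higher in PMD-Sen than in untreated cells, by 0.79 ± 0.15 (adjusted p = 0.0029). CDC45, a subunit of that helicase, was below untreated in both, with 111 and 160 in PMD-Sen and 19 and 25.8 in DDR-Sen (2.58 ± 0.29, adjusted p = 1.9e-04), and ORC6, of the origin recognition complex, had 242 and 328 against 71.2 and 72.6 (1.96 ± 0.19, adjusted p = 8.3e-05).

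PCNA, the sliding clamp of replication and repair and also a p53 target, ran opposite to its list. It had 2615 and 2436 normalized counts in untreated cells, 1066 and 1177 in PMD-Sen and 6724 and 9043 in DDR-Sen (-2.80 ± 0.14, adjusted p = 5.8e-06). TYMS, thymidylate synthase, had 1007 and 962 in untreated cells, 184 and 197 in PMD-Sen and 871 and 1258 in DDR-Sen (-2.45 ± 0.25, adjusted p = 1.0e-04). ENOSF1 overlaps 39.1% of the exon bases of TYMS on the opposite strand, so its reads are uncertain.

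Promoters of these genes are shown because their members moved together and carry known cell cycle elements. Sequences were taken from RefSeq on GRCh38.p14, from 250 bases before to 50 after a listed start, which gave 300 bases each, and 10048 of the 13936 tested genes had such a promoter. Motifs were searched on both strands. The cell cycle genes homology region (CHR), TTTGAA, through which DREAM and MuvB complexes act, was present in 23 of 33 mitotic genes with a promoter (69.7%), beside 13.8% of the tested genes and 18.2% of all genes in the table. The CCAAT box, bound by NF-Y, was present in 25 of those 33 (75.8%), beside 42.8% and 39.7%. CENPA (chr2:26785806-26786105, plus strand) and NUF2 (chr1:163321704-163322003, plus strand) are printed 5′ to 3′ with the CHR in capitals.
CENPA: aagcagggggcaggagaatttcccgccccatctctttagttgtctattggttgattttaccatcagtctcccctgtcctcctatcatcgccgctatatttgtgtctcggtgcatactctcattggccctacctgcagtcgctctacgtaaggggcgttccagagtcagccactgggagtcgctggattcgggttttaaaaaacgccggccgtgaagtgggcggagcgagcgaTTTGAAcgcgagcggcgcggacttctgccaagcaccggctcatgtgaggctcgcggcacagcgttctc
NUF2: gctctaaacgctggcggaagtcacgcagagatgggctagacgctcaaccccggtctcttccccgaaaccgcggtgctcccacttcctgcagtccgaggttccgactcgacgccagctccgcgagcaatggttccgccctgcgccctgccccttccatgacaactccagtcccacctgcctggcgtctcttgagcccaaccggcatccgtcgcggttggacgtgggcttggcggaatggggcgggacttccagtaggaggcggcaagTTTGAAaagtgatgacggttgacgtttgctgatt

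An E2F site, TTTCCCGC or TTTGGCGC, was present in 19 of 38 G1/S and replication genes with a promoter (50%), beside 4.55% of the tested genes and 2.75% of all genes in the table. It was found in the promoter of CDC6 (chr17:40287629-40287928, plus strand), which was much higher in PMD-Sen, and in that of PCNA (chr20:5126573-5126872, minus strand), which was lower. The site is in capitals, and in PCNA it lies on the reverse strand of the sequence printed.
CDC6: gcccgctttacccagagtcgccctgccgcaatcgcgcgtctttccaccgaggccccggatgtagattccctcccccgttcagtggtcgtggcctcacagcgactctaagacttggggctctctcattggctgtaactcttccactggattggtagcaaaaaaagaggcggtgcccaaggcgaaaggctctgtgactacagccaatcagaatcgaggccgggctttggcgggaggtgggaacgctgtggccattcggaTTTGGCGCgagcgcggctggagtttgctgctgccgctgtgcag
PCNA: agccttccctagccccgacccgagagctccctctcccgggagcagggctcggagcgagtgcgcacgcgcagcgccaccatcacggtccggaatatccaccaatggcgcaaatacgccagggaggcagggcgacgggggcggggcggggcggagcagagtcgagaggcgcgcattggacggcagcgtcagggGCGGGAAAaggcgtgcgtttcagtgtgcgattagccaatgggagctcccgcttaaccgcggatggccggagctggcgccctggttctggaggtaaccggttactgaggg

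Genes of homologous recombination and the Fanconi pathway, which repair double-strand breaks and crosslinks, were mostly lower than untreated after both treatments, 21 of 29 in PMD-Sen (median -1.105) and 25 in DDR-Sen (median -2.042). In the direct comparison 15 were higher and 1 was lower in PMD-Sen than in DDR-Sen (median 0.426), and with a library left out between 9 and 13 were higher. Over all genes tested, 30.5% were higher and 25.9% lower in PMD-Sen than in DDR-Sen. Against untreated cells 25% were lower in PMD-Sen and 19.7% in DDR-Sen. BRCA2, a mediator of strand exchange, had 325 and 402 normalized counts in PMD-Sen, 53.8 and 61.5 in DDR-Sen and 371 and 277 in untreated cells (2.65 ± 0.21, adjusted p = 3.6e-05). It was called lower than untreated in DDR-Sen (-2.50 ± 0.22, adjusted p = 1.9e-04), and in PMD-Sen it differed by 0.15 ± 0.18 (adjusted p = 0.52). BRCA1 had 349 and 347 in PMD-Sen and 135 and 121 in DDR-Sen (1.44 ± 0.12, adjusted p = 4.7e-05). MRE11, a nuclease of break resection, was the member lower in PMD-Sen, with 236 and 264 against 357 and 363 (-0.53 ± 0.16, adjusted p = 0.023).

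Other cyclin-dependent kinase inhibitors differed less than CDKN1A. CDKN2A, which encodes p16 and ARF, had 681 and 602 normalized counts in PMD-Sen, 433 and 478 in DDR-Sen and 641 and 639 in untreated cells (0.50 ± 0.10, adjusted p = 0.0036). LMNB1, the nuclear lamina protein whose loss accompanies senescence, had 1459 and 1239 in untreated cells and was far lower in both treatments, at 79.3 and 115 in PMD-Sen and 61 and 47.4 in DDR-Sen. Its direct difference of 0.81 ± 0.28 (adjusted p = 0.036) was not called without the smaller PMD-Sen library (adjusted p = 0.206) or without the smaller DDR-Sen library (adjusted p = 0.127). HMGB2, a chromatin protein of dividing cells, had 1983 and 1707 in untreated cells, 888 and 1047 in PMD-Sen and 268 and 336 in DDR-Sen (1.69 ± 0.14, adjusted p = 4.9e-05).

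The amino acid response driven by ATF4 had the highest median of the gene lists. Of 28 tested members 27 were higher in PMD-Sen and 1 was lower, beside 30.5% and 25.9% of all genes tested, with a median log2 difference of 2.511. The same counts, 27 and 1, held in PMD-Sen against untreated cells (median 2.278), while DDR-Sen had 6 higher and 10 lower than untreated (median -0.326), of which 2 were higher without the larger untreated library. Of all genes tested, 14.8% were higher and 19.7% lower than untreated in DDR-Sen. ATF4 itself had 17132 and 17395 normalized counts in PMD-Sen, 4169 and 3729 in DDR-Sen and 5893 and 5680 in untreated cells (2.13 ± 0.08, adjusted p = 1.9e-06).

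TRIB3, a pseudokinase that feeds back on ATF4, had 12658 and 12208 normalized counts in PMD-Sen, 448 and 507 in DDR-Sen and 711 and 583 in untreated cells (4.71 ± 0.10, adjusted p = 3.0e-07). ADM2, a peptide of the adrenomedullin family, had 3416 and 3528 in PMD-Sen against 86.1 and 119 in DDR-Sen (5.11 ± 0.23, adjusted p = 4.1e-06). The untreated libraries, at 211 and 86, lay around the DDR-Sen values. Enzymes of amino acid synthesis shared the pattern. CTH, which makes cysteine from cystathionine, had 866 and 934 in PMD-Sen, 28.2 and 34 in DDR-Sen and 28.7 and 26.3 in untreated cells (4.86 ± 0.18, adjusted p = 1.9e-06). PSAT1, of serine synthesis, had 13145 and 14613 in PMD-Sen and 987 and 1787 in DDR-Sen (3.39 ± 0.29, adjusted p = 4.7e-05). ASNS, asparagine synthetase, had 265 and 279 against 9.73 and 18.7 (4.32 ± 0.33, adjusted p = 3.0e-05), but 44.6% of its exon bases overlap another gene on the same strand.

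The transporter SLC7A11, which imports cystine, was known by its group means, 38383 in PMD-Sen, 8051 in DDR-Sen and 7323 in untreated cells. VLDLR, a lipoprotein receptor, had 2202 and 2438 normalized counts in PMD-Sen and 181 and 208 in DDR-Sen (3.58 ± 0.12, adjusted p = 1.8e-06). DDIT3, which encodes CHOP, had 3545 and 3088 in PMD-Sen, 380 and 432 in DDR-Sen and 262 and 242 in untreated cells (3.03 ± 0.10, adjusted p = 1.8e-06). ATF5 was the exception, with 864 and 849 in PMD-Sen against 1539 and 1640 in DDR-Sen (-0.89 ± 0.08, adjusted p = 5.4e-05).

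The amino acid response element, TGATGNAA, at which ATF4 pairs with a C/EBP partner, was present in 8 of 25 list members with a promoter (32%), beside 2.75% of the tested genes and 4.46% of all genes in the table. CHAC1, which degrades glutathione, and CEBPG, a partner of ATF4, carry it and are printed from RefSeq with the element in capitals, on the reverse strand of the sequence in CHAC1. They lie at chr15:40953221-40953520 and chr19:33373863-33374162, both on the plus strand of GRCh38.p14.
CHAC1: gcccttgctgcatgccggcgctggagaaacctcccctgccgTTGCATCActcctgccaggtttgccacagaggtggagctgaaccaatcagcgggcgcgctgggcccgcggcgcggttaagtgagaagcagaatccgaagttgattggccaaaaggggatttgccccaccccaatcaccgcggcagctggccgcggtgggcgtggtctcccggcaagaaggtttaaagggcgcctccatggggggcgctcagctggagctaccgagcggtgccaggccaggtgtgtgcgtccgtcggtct
CEBPG: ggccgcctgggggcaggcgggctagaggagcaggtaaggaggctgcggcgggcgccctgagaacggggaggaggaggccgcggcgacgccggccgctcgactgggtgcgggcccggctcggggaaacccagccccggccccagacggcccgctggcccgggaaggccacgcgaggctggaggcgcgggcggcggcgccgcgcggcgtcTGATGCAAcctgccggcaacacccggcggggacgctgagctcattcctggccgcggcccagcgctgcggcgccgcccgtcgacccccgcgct
CHAC1 had 4143 and 4574 normalized counts in PMD-Sen, 1054 and 928 in DDR-Sen and 2015 and 2632 in untreated cells (2.14 ± 0.13, adjusted p = 1.0e-05). CEBPG had 3018 and 3067 in PMD-Sen, 338 and 411 in DDR-Sen and 708 and 667 in untreated cells (3.03 ± 0.10, adjusted p = 1.8e-06). In both genes the untreated libraries lay between the treatments, and DDR-Sen was called below them, by -1.21 ± 0.13 for CHAC1 (adjusted p = 4.6e-04) and by -0.89 ± 0.12 for CEBPG (adjusted p = 0.0012).

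**Figure D3:**
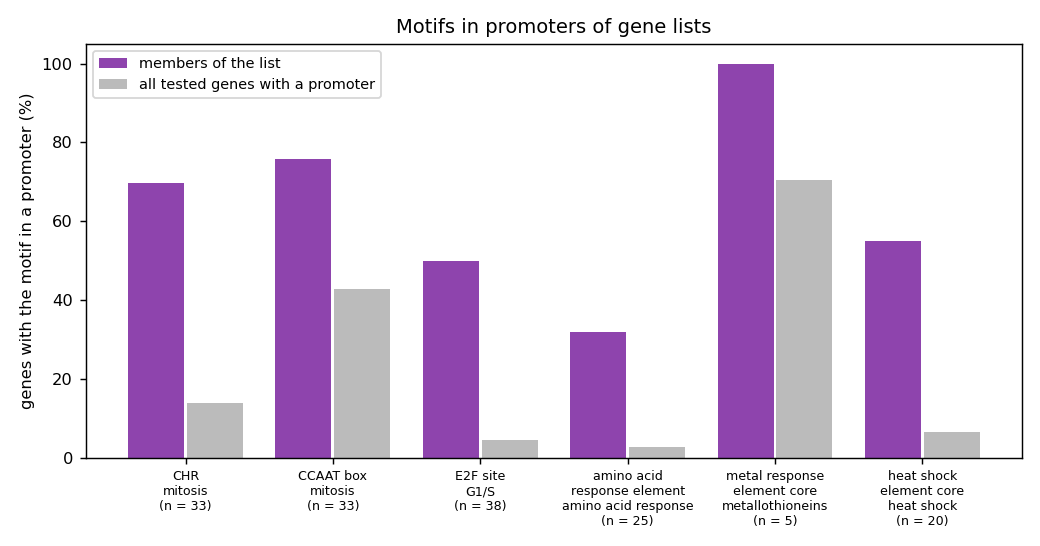
Bars give the percent of genes with the motif in a promoter of 300 bases, for the members of a list (purple) and for all tested genes with a promoter (grey), and n is the number of members with a promoter. The CHR was present in 69.7% of mitotic genes beside 13.8%, the E2F site in 50% of G1/S genes beside 4.55% and the amino acid response element in 32% beside 2.75%.

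The unfolded protein response was likewise higher in PMD-Sen. Of 21 tested members 18 were higher and 1 was lower than in DDR-Sen (median 1.009), and 19 were higher and none lower than in untreated cells (median 1.022), while DDR-Sen had 6 higher and 5 lower than untreated (median 0.014). The shares of all genes tested were 30.5% and 25.9%, 24.1% and 25%, and 14.8% and 19.7% in the same order. Without the larger untreated library the DDR-Sen counts were 2 and 1. HERPUD1, which serves ER-associated degradation, had 19835 and 18485 normalized counts in PMD-Sen, 1296 and 1233 in DDR-Sen and 1680 and 1565 in untreated cells (3.92 ± 0.07, adjusted p = 3.0e-07). DNAJB9, an ER co-chaperone and target of XBP1, had 8304 and 8003 in PMD-Sen and 1004 and 1178 in DDR-Sen (2.91 ± 0.10, adjusted p = 1.8e-06). ERN1, which encodes the sensor IRE1, had 2130 and 2154 against 528 and 612 (1.92 ± 0.09, adjusted p = 4.5e-06). The chaperone BiP, HSPA5, was known by its group means, which were 33103 in untreated cells, 237519 in PMD-Sen and 29311 in DDR-Sen, a log2 difference of 3.02 without a test. The lower member was CREB3L2, a membrane-bound transcription factor of the secretory pathway, at 3564 and 4027 against 4920 and 5249 (-0.42 ± 0.09, adjusted p = 0.0036).

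Of 19 antioxidant genes of NRF2, 11 were higher and 3 lower in PMD-Sen than in DDR-Sen (median 0.376), with 2 lower without the larger DDR-Sen or the smaller PMD-Sen library and 5 without the smaller DDR-Sen library. Over all genes tested, 30.5% were higher and 25.9% lower. HMOX1, heme oxygenase, had 12093 and 11596 normalized counts in PMD-Sen, 1128 and 1964 in DDR-Sen and 980 and 1658 in untreated cells (2.99 ± 0.26, adjusted p = 5.0e-05). GCLM, of glutathione synthesis, had 5410 and 5328 against 1932 and 2287 (1.35 ± 0.12, adjusted p = 5.3e-05). AKR1B10, an aldo-keto reductase, went the other way, with 46.2 and 55.2 in PMD-Sen, 276 and 479 in DDR-Sen and 30.2 and 33.3 in untreated cells (-2.82 ± 0.46, adjusted p = 0.0013). Of the 7 members with group means alone, 3 had a lower mean in PMD-Sen than in DDR-Sen, and their median difference was 0.826. NQO1 was among the lower ones, with group means of 9056 in PMD-Sen, 18672 in DDR-Sen and 10528 in untreated cells.

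Metallothioneins, which bind zinc and copper, were higher in PMD-Sen. MT2A had 22149 and 30450 normalized counts in PMD-Sen and 9727 and 6829 in DDR-Sen (1.67 ± 0.21, adjusted p = 3.2e-04), and MT1X had 177 and 198 against 54.3 and 26.9 (2.26 ± 0.28, adjusted p = 3.1e-04). These genes are near-identical copies and their split of reads is uncertain. The zinc importer SLC39A10 was the member of the 6 that was lower, at 762 and 785 against 1873 and 2152 (-1.38 ± 0.10, adjusted p = 2.6e-05). The metal response element core, TGCNCNC, was present in all 5 members with a promoter but also in 70.5% of the tested genes (59.4% of all in the table).

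Cytosolic heat shock genes had 10 of 17 higher and 4 lower in PMD-Sen (median 0.521), with 2 lower when either PMD-Sen library was left out. Over all genes tested, 30.5% were higher and 25.9% lower. HSPD1, a mitochondrial chaperonin, had 12021 and 12261 normalized counts in PMD-Sen, 5104 and 5209 in DDR-Sen and 10391 and 9906 in untreated cells (1.24 ± 0.07, adjusted p = 6.3e-06). It was called lower than untreated in DDR-Sen (-0.98 ± 0.07, adjusted p = 5.0e-05). HSPA4L, a nucleotide exchange factor, had 295 and 247 in PMD-Sen, 1024 and 1500 in DDR-Sen and 566 and 454 in untreated cells (-2.19 ± 0.24, adjusted p = 1.7e-04). The heat shock element core, GAANNTTC, was present in 11 of 20 members with a promoter (55%), beside 6.53% of the tested genes and 8.21% of all in the table.

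Most genes of cholesterol synthesis and uptake were higher in PMD-Sen. SREBP2 turns on the cholesterol genes when ER cholesterol falls. Of 25 tested cholesterol genes 16 were higher and 1 was lower than in DDR-Sen (median 0.947), and 15 were higher and none lower than in untreated cells (median 0.785), a count that dropped to 9 without the smaller untreated library. Over all genes tested, 30.5% were higher and 25.9% lower than in DDR-Sen, and 24.1% higher and 25% lower than in untreated cells. SQLE, which oxidises squalene, had 4411 and 5677 normalized counts in PMD-Sen, 1179 and 742 in DDR-Sen and 1812 and 1428 in untreated cells (2.41 ± 0.21, adjusted p = 5.7e-05). MSMO1, a sterol oxidase of the pathway, had 3997 and 5851 against 1489 and 1049 (1.95 ± 0.24, adjusted p = 2.6e-04), and INSIG1, which holds SREBP in the ER, had 1941 and 3105 against 844 and 683 (1.69 ± 0.25, adjusted p = 6.9e-04). The lower member was the sterol reductase TM7SF2, at 273 and 285 against 422 and 560 (-0.79 ± 0.22, adjusted p = 0.016).

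ABCA1, the transporter that loads cholesterol on apolipoprotein A-I, had 1615 and 1369 normalized counts in untreated cells, 112 and 63.6 in PMD-Sen and 2963 and 4476 in DDR-Sen (-5.40 ± 0.42, adjusted p = 3.1e-05). It was below untreated cells in PMD-Sen (-4.12 ± 0.43, adjusted p = 1.6e-04) and above them in DDR-Sen (1.28 ± 0.20, adjusted p = 0.0024).

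Among 14 genes of fatty acid synthesis 6 were higher and 2 lower in PMD-Sen (median 0.163), beside 30.5% and 25.9% of all genes tested. ELOVL5 and ELOVL6, which lengthen polyunsaturated and saturated fatty acids, were 8327 and 8666 normalized counts against 1186 and 1096 for ELOVL5 (2.90 ± 0.08, adjusted p = 1.3e-06) and 3931 and 3882 against 923 and 672 for ELOVL6 (2.31 ± 0.14, adjusted p = 1.1e-05). ACACB, the carboxylase that restrains mitochondrial fatty acid uptake, was lower, with 63.9 and 45.6 against 143 and 148 (-1.41 ± 0.21, adjusted p = 7.8e-04).

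Clustered histone genes, most of whose transcripts lack poly(A) tails, were higher in DDR-Sen. Of 19 tested genes 16 were lower and 1 was higher in PMD-Sen than in DDR-Sen (median -1.456), beside 25.9% and 30.5% of all genes tested. Against untreated cells 18 were higher in DDR-Sen (median 2.082) and 9 in PMD-Sen (median 0.617), the latter falling to 2 without the larger untreated library. Of all genes tested, 14.8% were higher than untreated in DDR-Sen and 24.1% in PMD-Sen. H2BC8 had 150 and 116 normalized counts in PMD-Sen, 1104 and 1196 in DDR-Sen and 81.9 and 91.2 in untreated cells (-3.11 ± 0.15, adjusted p = 5.1e-06). H2BC21 had 203 and 313 in PMD-Sen, 1103 and 1482 in DDR-Sen and 342 and 344 in untreated cells (-2.35 ± 0.23, adjusted p = 8.8e-05). The higher gene in PMD-Sen was H2BC15, at 190.5 and 222 against 60.5 and 66.8 (1.69 ± 0.17, adjusted p = 1.1e-04). Histone genes are near-identical copies, so the share of reads that each was given is uncertain.

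**Figure D4:**
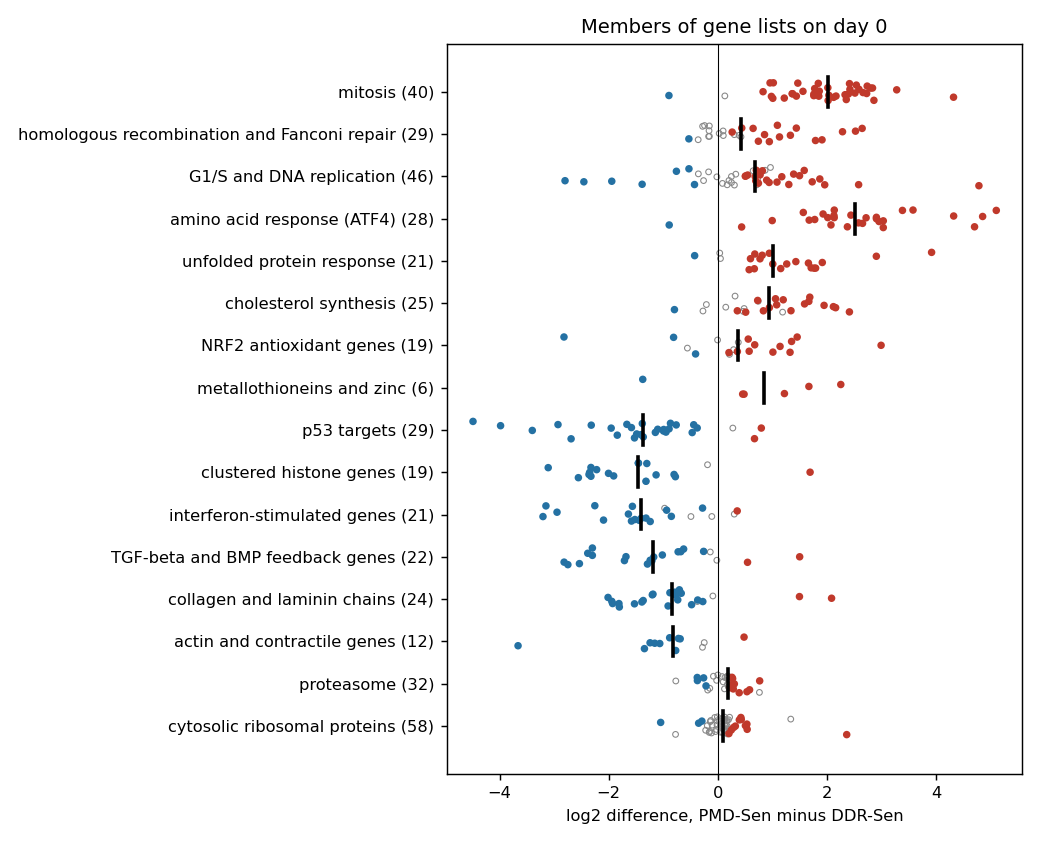
Each point is a tested member of a gene list, placed by its log2 difference, PMD-Sen minus DDR-Sen; red and blue mark members called higher and lower in PMD-Sen, open points those not called, and black bars the median, with the number of members in brackets. The medians run from 2.511 in the amino acid response to -1.456 in the clustered histone genes, with the proteasome at 0.180 and ribosomal proteins at 0.102.

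Of 13 cytokine and chemokine genes 5 were higher in PMD-Sen and 5 lower (median 0.735), beside 30.5% and 25.9% of all genes tested. CXCL8, which attracts neutrophils, had 3659 and 2483 normalized counts in PMD-Sen, 99.9 and 147 in DDR-Sen and 34.5 and 237 in untreated cells (4.65 ± 0.41, adjusted p = 5.8e-05), and the DDR-Sen values lay between the untreated ones. CXCL3, a related chemokine with near-identical neighbours, had 209 and 121 against 8.2 and 17 (3.76 ± 0.47, adjusted p = 3.1e-04). IL6 had 648 and 501 in PMD-Sen, 103 and 156 in DDR-Sen and 66.1 and 104 in untreated cells (2.18 ± 0.22, adjusted p = 9.9e-05), and a gene on the opposite strand overlaps 20.7% of its exon bases.

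Lower in PMD-Sen were CXCL12, CCL2 and CSF1, which attract or maintain monocytes and other leukocytes. CCL2 had 66.1 and 57.6 normalized counts in PMD-Sen, 294 and 567 in DDR-Sen and 681 and 1018 in untreated cells (-2.69 ± 0.58, adjusted p = 0.0051). CXCL12 had 94.7 and 91.3 in PMD-Sen, 710 and 705 in DDR-Sen and 435 and 507 in untreated cells (-2.92 ± 0.16, adjusted p = 6.7e-06), and CSF1 had 666 and 580, 2854 and 3418, and 2624 and 2722 (-2.32 ± 0.12, adjusted p = 6.0e-06). CCL2 was called below untreated cells in PMD-Sen (-3.72 ± 0.59, adjusted p = 0.0014). Of 18 feedback genes of NF-kB, 3 were higher and 7 lower in PMD-Sen (median 0.126), beside 30.5% and 25.9% of all genes tested. The adhesion molecule VCAM1 had 77.1 and 63.6 in PMD-Sen, 244 and 273 in DDR-Sen and 1007 and 616 in untreated cells (-1.87 ± 0.36, adjusted p = 0.0030), while NFKBIZ, a nuclear cofactor of NF-kB for IL6, had 1709 and 1411 against 542 and 494 (1.59 ± 0.14, adjusted p = 6.1e-05).

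Interferon-stimulated genes were lower in PMD-Sen, with 16 of 21 lower and 1 higher than in DDR-Sen (median -1.405), beside 25.9% and 30.5% of all genes tested. In PMD-Sen 12 were below untreated cells and 1 above (median -0.836), and in DDR-Sen 8 were above and 2 below (median 0.264), with 4 above when the smaller untreated library was left out. Of all genes tested, 25% were below untreated cells and 24.1% above in PMD-Sen, and 14.8% were above and 19.7% below in DDR-Sen. IFIT1, which binds foreign RNA caps, had 62.8 and 60 normalized counts in PMD-Sen, 495 and 615 in DDR-Sen and 434 and 281 in untreated cells (-3.15 ± 0.32, adjusted p = 1.0e-04). ISG15, a ubiquitin-like modifier, had 538 and 486, 1425 and 1791, and 1017 and 907 (-1.64 ± 0.14, adjusted p = 5.0e-05). STAT2, which carries the interferon signal to these genes, was the higher member, at 5358 and 4931 against 4001 and 4029 (0.36 ± 0.09, adjusted p = 0.010).

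Genes fed back by TGF-beta and BMP signalling were lower in PMD-Sen too. Of 22 tested, 17 were lower and 2 higher (median -1.191), and leaving out the larger PMD-Sen library brought the lower count to 12. Relative to untreated cells 11 were lower in PMD-Sen (median -0.452) and 12 higher in DDR-Sen (median 0.458), the last count dropping to 6 without the larger untreated library. Among all genes tested, 25.9% were lower and 30.5% higher in PMD-Sen than in DDR-Sen. Relative to untreated cells 25% were lower in PMD-Sen and 14.8% higher in DDR-Sen. ID1, an inhibitor of differentiation induced by BMP, had 408 and 598 normalized counts in PMD-Sen, 3492 and 3440 in DDR-Sen and 947 and 2179 in untreated cells (-2.82 ± 0.35, adjusted p = 3.2e-04). SMAD3, a transducer of TGF-beta, had 2050 and 2046 in PMD-Sen, 9077 and 11196 in DDR-Sen and 9733 and 9532 in untreated cells (-2.30 ± 0.10, adjusted p = 3.9e-06). The ligands BMP6 and TGFB2 were the higher members, BMP6 at 94.7 and 130 against 28.7 and 54.5 (1.50 ± 0.32, adjusted p = 0.0046) and TGFB2 at 1553 and 1244 against 883 and 1034 (0.55 ± 0.12, adjusted p = 0.0056).

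Of 24 tested collagen and laminin chains 20 were lower and 2 higher in PMD-Sen than in DDR-Sen (median -0.832), and 14 were lower without the smaller PMD-Sen library. Among all genes tested, 25.9% were lower and 30.5% higher. LAMA3, a laminin chain, had 102 and 74.4 normalized counts in PMD-Sen, 342 and 372 in DDR-Sen and 152 and 154 in untreated cells (-2.01 ± 0.18, adjusted p = 6.0e-05). COL15A1, a basement membrane collagen, was higher, with 1227 and 1006, 269 and 255, and 614 and 423 (2.09 ± 0.16, adjusted p = 2.9e-05). The 14 most abundant chains had group means alone: 10 had a lower mean in PMD-Sen than in DDR-Sen, and 2 of these were lower by at least 1 on the log2 scale. The mean of COL3A1, of fibrillar type III collagen, was 4056 in PMD-Sen, 26218 in DDR-Sen and 31917 in untreated cells. The means of COL1A1 were 213769, 304294 and 319103, and COL1A2, its partner in type I collagen, ran the other way with 297660, 223255 and 200614. LOX, which crosslinks collagen, had a higher mean in PMD-Sen, 48568 against 9990 in DDR-Sen and 12359 in untreated cells.

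Of 22 elastic fibre and matricellular genes 13 were lower and 1 was higher in PMD-Sen (median -0.546), beside 25.9% and 30.5% of all genes tested. VCAN, a large matrix proteoglycan, had 2960 and 4462 normalized counts in PMD-Sen, 12762 and 13143 in DDR-Sen and 5752 and 6031 in untreated cells (-1.83 ± 0.16, adjusted p = 5.1e-05). CCN4, a secreted matrix protein of Wnt signalling, had 27.5 and 36, 131 and 177, and 272 and 258 (-2.24 ± 0.31, adjusted p = 5.1e-04). The fibroblast markers with all libraries known, PDGFRA, PDGFRB, LUM and S100A4, were all 4 lower in PMD-Sen, with a median of -1.134 and a summed count of 7988 to 8506 against 16372 to 19053 in DDR-Sen and 21066 to 23985 in untreated cells. The other 7 markers, more abundant and known by group means alone, differed less, with a median of -0.509. The mean was lower in PMD-Sen for 6 of these 7, and 3 were lower by at least 1. FN1 differed by -0.08, and COL1A2 was higher in PMD-Sen (0.41). PDGFRA, a receptor for platelet-derived growth factor, had 1601 and 1999 in PMD-Sen, 5921 and 4340 in DDR-Sen and 10460 and 8960 in untreated cells (-1.51 ± 0.17, adjusted p = 1.7e-04).

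Actin and contractile genes were mostly lower in PMD-Sen than in DDR-Sen. Of 12 tested, all 12 were below untreated cells in PMD-Sen (median -1.422), while in DDR-Sen 9 were below them and 2, FHL2 and SMTN, above (median -0.582). With each DDR-Sen or untreated library left out in turn, 1 was above. In the direct comparison 9 were lower and 1 higher (median -0.826). LMOD1, which nucleates actin filaments in smooth muscle, had 170 and 192 normalized counts in PMD-Sen, 2397 and 2178 in DDR-Sen and 2934 and 2764 in untreated cells (-3.66 ± 0.14, adjusted p = 1.9e-06). SRF, the transcription factor of these genes, had 1477 and 1454, 2337 and 2390, and 3337 and 3492 (-0.69 ± 0.07, adjusted p = 1.1e-04). All 14 members with group means alone, which include the cytoplasmic actins, had a lower mean in PMD-Sen, and ACTB had 62037 in PMD-Sen, 144055 in DDR-Sen and 217568 in untreated cells. Of 17 targets of YAP and TEAD, which respond to cell tension, 9 were lower and 3 higher (median -0.300). Over all genes tested, 25.9% were lower and 30.5% higher.

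Of 30 tested genes of plasma membrane repair, 7 were higher and 14 lower in PMD-Sen than in DDR-Sen (median -0.165), beside 30.5% and 25.9% of all genes tested. The higher ones included the calcium sensors of membrane fusion DYSF and SYT7. DYSF, dysferlin, had 134 and 145 normalized counts in PMD-Sen, 27.7 and 17.6 in DDR-Sen and 12.9 and 21.1 in untreated cells (2.63 ± 0.27, adjusted p = 1.1e-04), and SYT7, a synaptotagmin of lysosomal exocytosis, had 82.6 and 80.4, 15.4 and 10.5, and 24.4 and 5.26 (2.65 ± 0.41, adjusted p = 9.5e-04). Of the 7 members of the list with group means alone, 5 had a lower mean in PMD-Sen than in DDR-Sen (median -0.560). The annexins ANXA4 and ANXA11 were lower, while among those with group means alone ANXA1 and ANXA5 had higher means in PMD-Sen than in DDR-Sen (20922 against 16410 and 39335 against 31820) and ANXA2 and ANXA6 lower ones (36431 against 66518 and 9153 against 16759). ANXA4 had 1513 and 1411 in PMD-Sen, 4429 and 5308 in DDR-Sen and 1509 and 1795 in untreated cells (-1.73 ± 0.11, adjusted p = 1.7e-05), whereas ANXA11 had 3300 and 3561, 8584 and 7890, and 8371 and 8498 (-1.26 ± 0.08, adjusted p = 1.0e-05). Against untreated cells ANXA4 was called in DDR-Sen (1.56 ± 0.12, adjusted p = 8.0e-05) and ANXA11 in PMD-Sen (-1.30 ± 0.08, adjusted p = 1.6e-05), each without a call in the other treatment. CHMP4B, the ESCRT-III subunit that forms the membrane-cutting filament, had 3439 and 3338 in PMD-Sen, 3417 and 3317 in DDR-Sen and 3422 and 3452 in untreated cells, with a difference of 0.01 ± 0.07 (adjusted p = 0.91).

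Calcium response genes had 6 of 22 higher and 6 lower (median 0.028), shares near the 30.5% and 25.9% of all genes tested. RCAN1, an inhibitor of calcineurin that NFAT induces, had 16249 and 15895 normalized counts in PMD-Sen, 2636 and 2649 in DDR-Sen and 3439 and 3827 in untreated cells (2.60 ± 0.07, adjusted p = 1.5e-06), and ATP2B1, a plasma membrane calcium pump, had 8530 and 8123 against 2739 and 2243 (1.75 ± 0.10, adjusted p = 7.8e-06). Immediate early genes had 9 of 23 higher and 7 lower (median 0.058). ATF3, a stress-induced factor, had 4903 and 3327 in PMD-Sen, 651 and 856 in DDR-Sen and 343 and 367 in untreated cells (2.44 ± 0.19, adjusted p = 3.0e-05). Among the feedback genes of MAP kinases, 5 of 16 higher and 4 lower, the phosphatases DUSP1 and DUSP4 parted: DUSP1 was 11546 and 8466 against 3472 and 3676 (1.47 ± 0.15, adjusted p = 1.1e-04) and DUSP4 51.7 and 45.6 against 309 and 340 (-2.72 ± 0.22, adjusted p = 3.8e-05).

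Growth factors of repair had 6 of 21 higher and 8 lower (median 0.022), beside 30.5% and 25.9% of all genes tested. ANGPTL4, an inhibitor of lipoprotein lipase, had 4480 and 5832 normalized counts in PMD-Sen, 1043 and 734 in DDR-Sen and 289 and 381 in untreated cells (2.54 ± 0.18, adjusted p = 2.2e-05). FGF7, the keratinocyte growth factor made by fibroblasts, was lower in PMD-Sen, with 746 and 778, 3552 and 4503, and 3386 and 4468 (-2.39 ± 0.17, adjusted p = 2.2e-05). The group mean of IGFBP5, a binding protein of insulin-like growth factors, was 29065 in PMD-Sen, 86021 in DDR-Sen and 147532 in untreated cells. VEGFA had 5806 and 5314 in PMD-Sen against 1764 and 2340 (1.45 ± 0.14, adjusted p = 8.0e-05). It also belongs to the glycolysis and hypoxia list, of which 7 of 20 were higher and 6 lower, beside 30.5% and 25.9% of all genes tested.

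For the counts that follow, 30.5% of all genes tested were higher in PMD-Sen and 25.9% lower. The autophagy, matrix protease and EGF receptor lists lay near these shares. Autophagy and lysosome genes had 6 of 25 higher and 6 lower. MAP1LC3B, which encodes the autophagosome protein LC3B, had 19935 and 17937 normalized counts in PMD-Sen, 5461 and 5263 in DDR-Sen and 3787 and 4064 in untreated cells (1.82 ± 0.08, adjusted p = 3.1e-06). Matrix proteases and inhibitors had 5 of 17 higher and 5 lower, with as few as 2 higher without the larger PMD-Sen library and 3 lower without the larger DDR-Sen library. Of 7 EGF receptor ligands and receptors 2 were higher and 2 lower, and 1 in each direction without the larger PMD-Sen library. Proteasome subunits and ribosomal proteins had medians of 0.180 and 0.102, beside 0.050 over all genes tested. Of 32 proteasome genes 11 were higher and 4 lower, with 4 higher when the smaller PMD-Sen library was left out, and of 58 ribosomal genes 12 were higher and 3 lower, a count of higher genes that ranged from 6 to 20. The 2 ribosomal genes furthest out are unusual paralogs. RPL22L1 had 1464 and 1718 in PMD-Sen against 321 and 293 (2.36 ± 0.11, adjusted p = 4.4e-06), and the p53 target RPS27L had 3077 and 3061 against 5927 and 6787 (-1.05 ± 0.10, adjusted p = 7.8e-05).

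**Figure D5:**
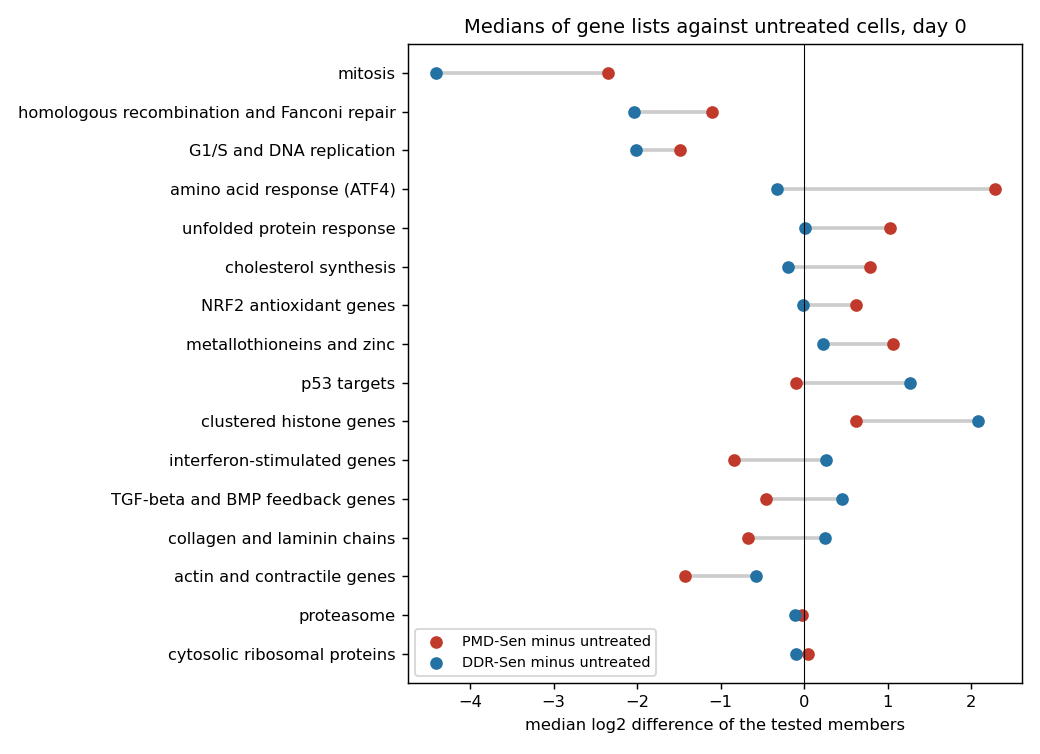
For each gene list the red point is the median log2 difference of its tested members in PMD-Sen minus untreated and the blue point that in DDR-Sen minus untreated, joined by a grey line; both share the untreated libraries. The mitosis list is below 0 in both, at -2.355 and -4.407, the amino acid response is at 2.278 and -0.326, and the p53 targets are at -0.097 and 1.268.

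Gene span, the distance on the genome from the start to the end of a gene, hardly ordered the direct difference. RefSeq gave a span for 12950 of the 13936 tested genes (92.9%), and over 10 groups of equal size ordered by span, from a median of 2.44 kb to 252 kb, the median difference between PMD-Sen and DDR-Sen stayed between -0.015 and 0.109. Relative to untreated cells the group of longest genes had medians of -0.112 in PMD-Sen and -0.125 in DDR-Sen. These are descriptions across genes, which are not independent. By kind of gene, 32.9% of 11755 protein-coding genes were higher and 27.2% lower in PMD-Sen, and 20.4% of 651 long noncoding RNAs were higher and 23.3% lower.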

How the data were processed

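Messenger RNA of WI-38 cells was sequenced in 2 untreated, 2 PMD-Sen day 0 and 2 DDR-Sen day 0 libraries, which the study describes as independent samples. The submitters' processing notes name Trim Galore, HISAT2, HTSeq, featureCounts, DESeq2 and GRCh38 (hg38), and versions and the annotation release are not given in the sources used here. The authors deposited 52 tables of their comparisons, whose log2 fold changes, standard errors, test statistics and p-values were not used. The deposited signal column used here is the mean over 4 libraries (2 untreated and 2 treated) of reads divided by size factors.

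The reads of each library were solved from these means (Python 3.11.15, NumPy 2.4.6), the untreated reads from 10 tables and the treated reads from the day 0 tables, which print 10 digits. Whole reads resulted for 99.72% of genes above 0 in the PMD-Sen table and 99.15% in the DDR-Sen table, and size factors recomputed from them deviated by at most 0.025% and 0.097%. Where several splits between 2 treated libraries solved a mean, a split within 2-fold of each other was kept if it was the only such split. This held for 163 genes in the PMD-Sen table and 153 in the DDR-Sen table, and it favours libraries that agree. For the remaining genes with several splits, group means are given. Libraries are named larger and smaller by their reads, and 1 row that names no gene was dropped.

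Reads plus 0.5 were fitted with limma 3.58.1 (voom weights, median-of-ratios scaling, R 4.3.3) on all 6 libraries, two-sided, with Benjamini-Hochberg adjustment over 13936 genes. The solver and the fit were tested on simulated data. Where the solver gave 1 solution, it equalled the reads drawn. With 200 genes changed, the fit recovered 2% at a log2 change of 0.5, 73.5% at 1 and 98.5% at 2. At a change of 1, 7.55% of the calls were on unchanged genes. The simulation changed far fewer genes than were called here. The p-values measure the spread between these libraries.

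Genes were named by a rule: the 10 furthest in each direction with means of at least 100, up to 5 called members of each list, and a short set of senescence genes. Others were added after their values were seen, as exceptions or well known members of a list. The comparison and the lists were chosen with earlier results of these data known. Exon overlaps came from GENCODE on GRCh38, sequences and spans from RefSeq. Alternatives were another threshold, scaling, filter, variance model and pseudocount, a fit without untreated libraries, and leaving out each library.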

Additional observations from a re-analysis of the deposited data

How the results depend on the processing

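With 2 libraries a group, leaving out a library leaves a lone sample that is assumed to vary like the other groups. Requiring a log2 difference of at least 1 lowered the genes called from 7863 to 2577 between PMD-Sen and DDR-Sen, from 6844 to 2450 in PMD-Sen against untreated cells and from 4809 to 1231 in DDR-Sen against untreated cells. Leaving out each library in turn gave 5996 to 7491, 4924 to 7205 and 2489 to 4702 genes for the same comparisons. Between PMD-Sen and DDR-Sen the other settings gave 7915 (library totals), 6416 (means of at least 100), 8332 (no filter), 7473 (4 libraries), 7543 (limma-trend) and 7870 (2 reads added). Library totals moved the median of all genes by 0.035 and changed the call of none of 196 named genes, and limma-trend changed that of 1. With a library left out, 1 to 12 of the 196 were no longer called. Sign changes were limited to 2 genes not called, CHMP4B and GDF15. With a library left out, CHMP4B ranged from -0.015 (without the smaller DDR-Sen library) to 0.043, with -0.005 without the larger PMD-Sen library. GDF15 ranged from -0.033 (without the larger DDR-Sen library) to 0.584 (without the smaller DDR-Sen library, where it was called at an adjusted p of 0.00148). The cause was not tested. No paired analysis was possible because the recovered libraries carry no replicate number that ties them to the labels.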

Other observations

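Several genes outside the lists, chosen after their values were seen, stood with those above. ABCG1, a cholesterol transporter related to ABCA1, had 0 reads in both PMD-Sen libraries, 96.3 and 240 normalized counts in DDR-Sen and 23 and 47.4 in untreated cells. With a floor of 3 reads per library it was at least 48.6-fold lower in PMD-Sen than in DDR-Sen, and it was the 1 tested gene at 0 in both libraries of a treatment. SULF2, a sulfatase of heparan sulfate at the cell surface, had 20.9 and 30 in PMD-Sen, 1174 and 2349 in DDR-Sen and 43.1 and 57.9 in untreated cells (-6.02 ± 0.89, adjusted p = 7.3e-04). PTGS2, which encodes cyclooxygenase 2, had 1164 and 759 in PMD-Sen, 113 and 78.5 in DDR-Sen and 25.9 and 75.5 in untreated cells (3.31 ± 0.31, adjusted p = 7.3e-05).

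EIF4EBP1, a repressor of cap-dependent translation, had 4402 and 4680.5 normalized counts in PMD-Sen, 490 and 533 in DDR-Sen and 1085 and 835 in untreated cells (3.15 ± 0.11, adjusted p = 1.9e-06). CAVIN2, which shapes caveolae in the plasma membrane, had 142 and 144 in PMD-Sen, 2186 and 2523 in DDR-Sen and 1630 and 1351 in untreated cells (-4.03 ± 0.19, adjusted p = 4.4e-06). NPTX1, a secreted pentraxin like PTX3, had 445 and 509 in PMD-Sen, 8205 and 8118 in DDR-Sen and 4449 and 3197 in untreated cells (-4.10 ± 0.17, adjusted p = 3.0e-06), the opposite order to PTX3. HKDC1, a hexokinase-like enzyme, had 538 and 370 in PMD-Sen, 25.1 and 13.5 in DDR-Sen and 40.2 and 38.6 in untreated cells (4.57 ± 0.37, adjusted p = 4.0e-05).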
